A study of Rattus norvegicus with 19 samples.

Results

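Transcriptionally active putative enhancers (TAPEs) whose RNA was higher in hippocampal than in cortical and striatal neuron cultures are described here. A TAPE is a stretch of open chromatin outside genes from which total RNA-seq reads were found on both strands. Levels were given as CPKM, reads per kilobase of TAPE and per M reads of the library (M, mega). Members were chosen by these regional levels, which are therefore given as descriptions without a test. A TAPE was a member if its mean over all 19 libraries was at least 0.02 CPKM and its hippocampal mean was at least 2 times both its cortical and its striatal mean. Of 27538 TAPEs, 368 met this rule (1.34%), which is 7.34% of the 5017 TAPEs that reached the mean of 0.02. The same rule applied to the other regions gave 265 TAPEs higher in cortex and 691 higher in striatum.

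Enhancers are regulatory DNA elements that raise transcription from promoters that may lie far away, and active enhancers are often transcribed themselves into short-lived enhancer RNA (eRNA). Their activity differs strongly between cell types, so the enhancers that are transcribed in a neuron follow its identity. The hippocampus forms next to a source of Wnt proteins at the cortical edge, and its dentate granule neurons express the transcription factor Prox1.

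Neurons came from Sprague-Dawley rats at embryonic day 18, were cultured for 11 days and received neurobasal medium (vehicle) or potassium chloride (KCl), which depolarizes neurons, for 1 h. There were 3 vehicle and 3 KCl libraries from hippocampus, the same from cortex, and, by the titles, 4 vehicle and 3 KCl libraries from striatum, where the study's supplementary methods give 3 vehicle and 4 KCl. Labels of the samples give KCl as 25 mM where the text of the series gives 10 mM. Replicate 3 of cortex vehicle has a cortical title and a striatal tissue label. The title was followed. Over the 1870 TAPEs with a mean of at least 0.05 CPKM, on log2(CPKM + 0.05), this library was compared with the regions' means. It had an r of 0.833 with cortex, 0.675 with hippocampus and 0.51 with striatum. Library totals, inferred from the spacing of the CPKM values, ran from 46.4 to 72.5 M reads, of which 47431 to 83272 fell in TAPEs. The study's methods give fewer reads per sample, and this difference was not resolved. Of the labelled regions' own markers, 14 of 22 hippocampal identity genes passed the test as higher in hippocampus, and 9 of 14 striatal projection neuron genes passed as lower there, with 1 higher (exact permutation test over libraries, adjusted p under 0.05). Of 12 cortical projection neuron genes, 4 were lower and 2 higher. Over all 16733 genes with a profile, 21.3% were higher. The test set hippocampus against cortex and striatum together, so a gene could pass while its hippocampal and cortical libraries overlapped. Every hippocampal library lay above every other library for 10.7% of all genes, and for 14 of the 22 hippocampal identity genes. Genes of other cells that were higher in the hippocampal cultures were 6 of 8 Cajal-Retzius cell genes (Tp73, Lhx1, Lhx5, Ebf2, Calb2 and Nhlh2), 4 of 7 astrocyte genes (Gfap, Aqp4, Slc1a3 and Slc1a2), 2 of 3 choroid plexus genes (Ttr and Folr1), 3 of 8 oligodendrocyte-lineage genes, 2 of 6 vascular and meningeal genes, 2 of 6 dividing-progenitor genes and 1 of 5 microglial genes. Hippocampal libraries lay wholly above the others for 2 of the 8 Cajal-Retzius genes (Calb2 and Nhlh2) and 3 of the 7 astrocyte genes. The same held for 2 of 3 choroid plexus, 3 of 8 oligodendrocyte-lineage, 2 of 6 vascular and meningeal and 2 of 6 dividing-progenitor genes. It held for 0 of 5 microglial genes. Of 9 interneuron genes 0 were higher and 1 was lower, Sst. Also lower were 2 oligodendrocyte-lineage and 2 dividing-progenitor genes. Reln and Ebf3 of the Cajal-Retzius list and Aldh1l1 of the astrocyte list had lower means in hippocampus than in the other libraries. They did not pass (exact permutation adjusted p = 0.0643, 0.131 and 0.0975). Gene profiles have no scale, so the summed level of these lists cannot be given, and their part in the members' levels was not tested. In such bulk cultures, more cells of a type and more RNA per cell cannot be told apart.

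Some of the genes described below are introduced by their promoters, since each is the nearest gene to a strongly transcribed member and had RNA that followed that member across libraries with a Pearson r of at least 0.9. The sequences are the 250 bases before the annotated start, 5′ to 3′ on the gene's strand, from RefSeq on GRCr8, a later assembly than the Rn6 assembly of the TAPE positions. They are chr8:52102064-52102313 (minus strand), chr5:121289949-121290198 (plus strand) and chr2:244571098-244571347 (minus strand). Capitals mark the bHLH E-boxes CAGATG and CAGCTG and the TCF/LEF core CTTTGA, searched on both strands.
Grik4 promoter: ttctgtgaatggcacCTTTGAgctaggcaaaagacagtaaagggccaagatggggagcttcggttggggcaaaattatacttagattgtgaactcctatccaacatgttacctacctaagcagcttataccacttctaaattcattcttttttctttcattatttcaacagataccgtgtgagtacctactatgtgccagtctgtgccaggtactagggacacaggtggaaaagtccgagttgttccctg
Dnajc6 promoter: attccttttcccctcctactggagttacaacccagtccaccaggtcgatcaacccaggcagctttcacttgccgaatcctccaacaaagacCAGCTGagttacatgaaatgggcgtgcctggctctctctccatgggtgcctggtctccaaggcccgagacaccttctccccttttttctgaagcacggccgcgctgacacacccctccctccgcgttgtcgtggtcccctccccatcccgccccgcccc
St6galnac5 promoter: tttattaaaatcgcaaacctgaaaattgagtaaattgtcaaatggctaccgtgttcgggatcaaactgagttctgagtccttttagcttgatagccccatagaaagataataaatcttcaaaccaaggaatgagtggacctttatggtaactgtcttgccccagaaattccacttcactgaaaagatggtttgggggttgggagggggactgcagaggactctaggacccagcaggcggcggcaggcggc
Grik4 held CTTTGA starting 235 bases before the start, Dnajc6 held CAGCTG starting 159 bases before it, and none of these letters occurred in the St6galnac5 window. Over the 33469 promoters of this length, CAGATG occurred in 13.96%, CAGCTG in 11.97% and CTTTGA in 13.9%, and over the 13815 promoters of genes with a profile in 10.7, 12.8 and 11.6%. Of the 163 hippocampus-higher genes within 100 kb of a member, 135 promoters could be matched, and 25 of them held CAGATG (18.5%), 22 held CAGCTG (16.3%) and 11 held CTTTGA (8.15%). A match is a description of letters and not of a bound site.

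Members were mostly low in absolute terms. Their hippocampal means ran from 0.0323 to 1.44 CPKM with a median of 0.0652, against a median of 0.0187 in cortex and 0.0117 in striatum. Summed over the 368 members, the 6 hippocampal libraries held 77.8 to 85.6 reads per M, the 6 cortical libraries 19.95 to 24.3 and the 7 striatal libraries 13.1 to 16.2. In a hippocampal library 2.99 to 6.52% of members had no read, in a cortical library 23.4 to 41.6% and in a striatal library 47.6 to 54.6%. The rule compared means, and it did not ask that libraries stay apart: the hippocampal libraries all lay above every cortical and striatal library for 82 members (22.3%), where 1.81% of the 5017 TAPEs did so. Since the rule used this contrast, no test was made of it. A mean of 0.05 CPKM over all libraries was reached by 77 members and a mean of 0.1 by 34, so that most rest on few reads (median 68 reads over the 19 libraries).

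Among themselves, members differed in how low the other regions were. Cortex was the next highest region for 268 members (72.8%), where 48.7% of the 5017 TAPEs had a higher cortical than striatal mean. No read at all was found in the 7 striatal libraries for 37 members, in the 6 cortical libraries for 3, and in either region for 2. With each region raised to at least the value of 3 reads, the ratio of the hippocampal mean to the larger other mean had a median of 2.98. It was at least 3 for 180 members, at least 5 for 77 and at least 10 for 18. Close to the limit of the ratio, the TAPEs nearest to She and Rpl6 were just inside (2.0002 and 2.0032) and those nearest to Pdzd8 and Cul2 just outside (1.995 and 1.9899). Close to the limit of the mean, those nearest to Sowahb and LOC688442 were inside (0.020002 and 0.020017 CPKM) and those nearest to Tex36 and LOC102547811 outside (0.019985 and 0.019962). Members had a median length of 1963 bp, and all TAPEs with a mean of at least 0.02 had one of 1891 bp.

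The member with the most RNA lay on chromosome 15 (14884619 to 14887883), 148547 bp from the start of Synpr, which encodes the synaptic vesicle protein synaptoporin. Its hippocampal libraries ran from 1.22 to 1.61 CPKM with a median of 1.43, its cortical libraries from 0.0792 to 0.33 with a median of 0.224, and its striatal libraries from 0.0822 to 0.174 with a median of 0.13. The regions did not overlap. Synpr RNA did not pass the test as higher in hippocampus (exact permutation adjusted p = 0.178), and over all libraries its r with the member was -0.46 in the authors' deposited table. A member on chromosome 14 (11498397 to 11500933) ranked next, at 0.709 to 1.28 CPKM (median 1.02) in hippocampus, 0.219 to 0.382 (median 0.305) in cortex and 0.167 to 0.363 (median 0.278) in striatum. Its nearest gene, Hnrnpd, which encodes an RNA-binding protein, lay 243397 bp away and was lower in hippocampus (exact permutation adjusted p = 0.0489).

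Next was a member on chromosome 7 (121867281 to 121868452), 21290 bp from Fam83f, at 0.495 to 1.011 CPKM (median 0.783) in hippocampus, 0.201 to 0.4 (median 0.239) in cortex and 0 to 0.12 (median 0.0442) in striatum. It shows the order of hippocampus, then cortex, then striatum that most members shared. Grap2, an adaptor gene 26012 bp from it, was higher in hippocampus (exact permutation adjusted p = 0.00787), and Fam83f did not pass (adjusted p = 0.162). A member on chromosome 2 (191984004 to 191986918) reached 0.528 to 0.795 CPKM in hippocampus (median 0.576), with at most 0.166 in any cortical and 0.207 in any striatal library, and had no gene within 100 kb. On chromosome 9 (17483766 to 17485070), a member 144077 bp from Vegfa, the angiogenic growth factor gene, ran from 0.242 to 0.884 CPKM in hippocampus (median 0.507), 0.0228 to 0.135 in cortex (median 0.0647) and 0.141 to 0.232 in striatum (median 0.176). Here striatum, not cortex, came next to hippocampus, and the lowest hippocampal library lay just above the highest striatal library.

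The member of chromosome 8 (47235112 to 47238553) had Grik4 as its nearest start site, 142480 bp away, and lay 20851 bp beyond the end of Arhgef12, another gene. Grik4 encodes a kainate receptor subunit that is enriched in hippocampal pyramidal neurons. The TAPE ran from 0.4 to 0.731 CPKM in hippocampus (median 0.503), 0.0722 to 0.21 in cortex (median 0.134) and 0.0351 to 0.134 in striatum (median 0.0933). Grik4 RNA was higher in hippocampus (exact permutation adjusted p = 0.000274), with an r of 0.972 over the 19 libraries and of 0.909 over the 6 hippocampal libraries alone. The r over all libraries largely restates the regional difference that the rule selected, which the r within hippocampus does not. The r within hippocampus spans both treatments, however. Grik4 had every hippocampal KCl library below every vehicle library, and the TAPE had means of 0.622 CPKM with vehicle and 0.451 with KCl. How much of this r comes from the treatment was not tested.

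On chromosome 5 (120327798 to 120331739), a member 10878 bp from Dnajc6, which encodes the clathrin uncoating factor auxilin, ran from 0.456 to 0.572 CPKM in hippocampus (median 0.513), 0.158 to 0.275 in cortex (median 0.218) and 0.0175 to 0.0608 in striatum (median 0.0394). Dnajc6 and Ak4, an adenylate kinase gene 79152 bp away, were both higher in hippocampus (exact permutation adjusted p = 0.00154 and 0.000274). A pair on chromosome 2 (258007376 to 258009502 and 258010059 to 258012442) lay 44396 and 41584 bp from St6galnac5, a sialyltransferase gene that was higher in hippocampus (exact permutation adjusted p = 0.000274). The first ran from 0.349 to 0.502 CPKM in hippocampus and from 0.133 to 0.357 in striatum, so that those groups touched, and the second from 0.345 to 0.475 and from 0.096 to 0.228. On chromosome 14 (79915257 to 79917251), a member at 0.381 to 0.504 CPKM in hippocampus lay 2466 bp beyond the end of Afap1, an actin filament-associated gene whose RNA was lower there (exact permutation adjusted p = 0.000274, r = -0.867 over 19 libraries and -0.835 within hippocampus). Members 4209 bp from Skida1 on chromosome 17 and 527895 bp from Ccnh, the cyclin H gene, on chromosome 2 completed the 12 highest, at medians of 0.464 and 0.382 CPKM in hippocampus. Neither Skida1 nor Ccnh passed the test as higher (exact permutation adjusted p = 0.81 and 0.102).

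**Figure D1:**
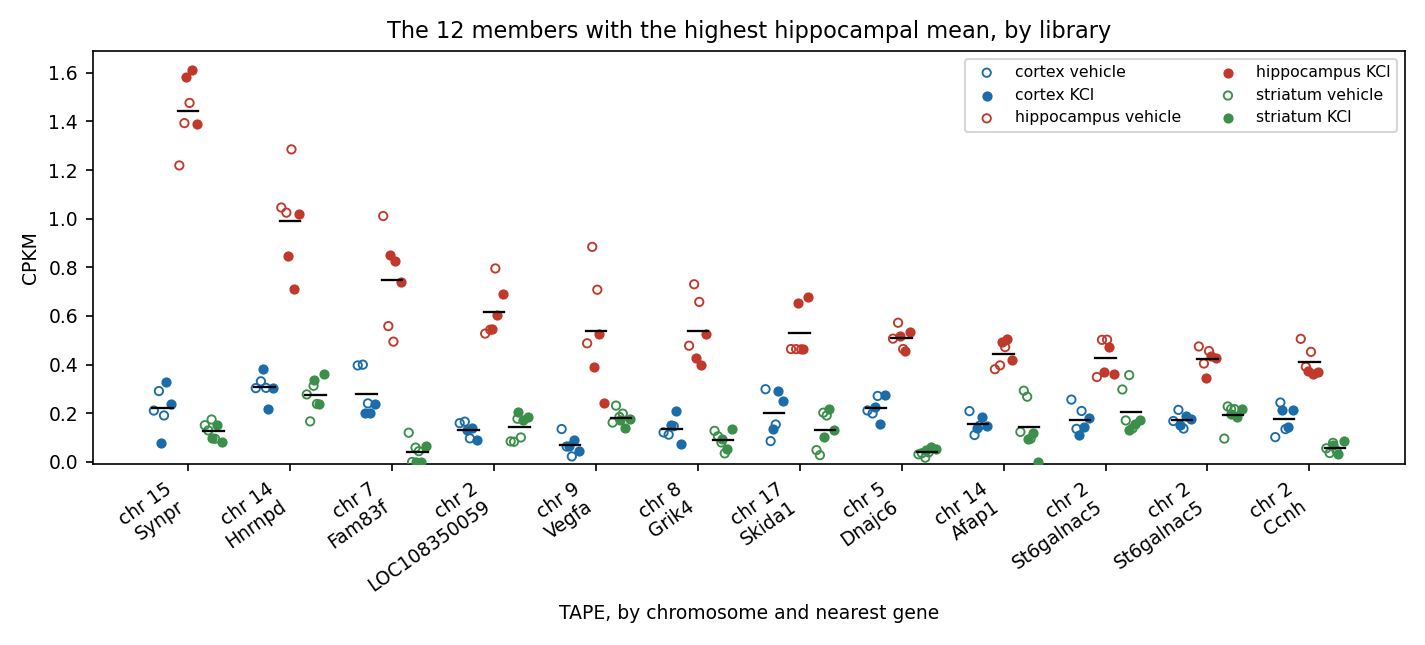
CPKM (linear axis) of the 12 members with the highest hippocampal mean in each of the 19 libraries. Open circles are vehicle and filled circles KCl libraries, coloured by region, and black lines are region means (6 cortical, 6 hippocampal and 7 striatal libraries). Hippocampal libraries lie above all others at each TAPE except the first of the pair nearest to St6galnac5, where a striatal library reaches 0.357.

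The members with the highest ratios were less abundant and nearly silent elsewhere. On chromosome 7 (33658152 to 33660292), 74658 bp from Nedd1, a centrosomal gene, 122 reads were found in hippocampus (0.124 to 0.248 CPKM, median 0.149), 4 in cortex and 4 in striatum, a ratio of 35.9. Nedd1 was higher in hippocampus (exact permutation adjusted p = 0.0368). Also on chromosome 7 (91778592 to 91780756), 53314 bp from the zinc transporter gene Slc30a8, a member held 89 hippocampal reads (0.0693 to 0.188 CPKM, median 0.118), 2 cortical and no striatal reads. Slc30a8 was higher in hippocampus as well (exact permutation adjusted p = 0.000274), with r = 0.937 over 19 libraries and 0.619 over the 6 hippocampal ones. A member on chromosome 8 (98777105 to 98779331) had 53 reads in hippocampus (0.0155 to 0.149 CPKM) and none in the 13 other libraries, which makes it at least 19.3-fold higher there against a floor of 3 reads over a region. It lay 32908 bp from Zic4 and 39772 bp from Zic1, neighbouring zinc finger transcription factor genes whose profiles could not be solved.

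Neighbouring members on chromosome 4 (139103649 to 139105447 and 139105954 to 139107885), 218992 and 221364 bp from the cereblon gene Crbn, held 53 and 65 hippocampal, 2 and 4 cortical, and no striatal reads. Crbn did not pass the test (exact permutation adjusted p = 0.853). The members nearest to Utp15 (129956 bp away), LOC499715 (19093 bp) and Osmr (11268 bp), all on chromosome 2, held 61, 57 and 43 hippocampal reads and at most 4 in either other region. The oncostatin M receptor gene Osmr and LOC499715 were higher in hippocampus (exact permutation adjusted p = 0.000274 each), as was Utp15, a ribosome biogenesis gene (adjusted p = 0.0411).

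To ask whether genes near the members followed them, each gene's profile over the 19 libraries was solved from the deposited correlations, and the 6 hippocampal libraries were compared with the 13 others. Of 16733 genes with a profile, 3559 were higher in hippocampus (21.3%) and 3201 lower (19.1%; exact permutation test, adjusted p under 0.05). A start site within 100 kb of a member was found for 519 genes, of which 508 had a profile: 163 were higher (32.1%) and 57 lower (11.2%). Every hippocampal library lay above every other library for 103 of the 508 genes, and for 1783 of all 16733 (10.7%). Among genes within 100 kb of any TAPE with a mean of at least 0.02, 21.7% were higher and 20.6% lower. The shares of higher genes were 19.7% near the TAPEs higher in cortex and 15.6% near those higher in striatum.

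The share was larger at shorter distances. Of the genes up to 10 kb from a member, 23 of 43 were higher in hippocampus (53.5%), and 2 were lower. The share was 46.3% at 10 to 20 kb, 32.7% at 20 to 50 kb, 25.1% at 50 to 100 kb, 26.9% at 100 to 200 kb, 23.2% at 200 to 500 kb and 21.9% at 500 to 1000 kb. For all TAPEs with a mean of at least 0.02 it stayed between 20.2 and 25.5% in the same bands. Of the members' nearest genes, 114 of 293 were higher (38.9%), where 22.9% of the nearest genes of all such TAPEs were. These shares are descriptions, since neighbouring genes and members are not independent.

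**Figure D2:**
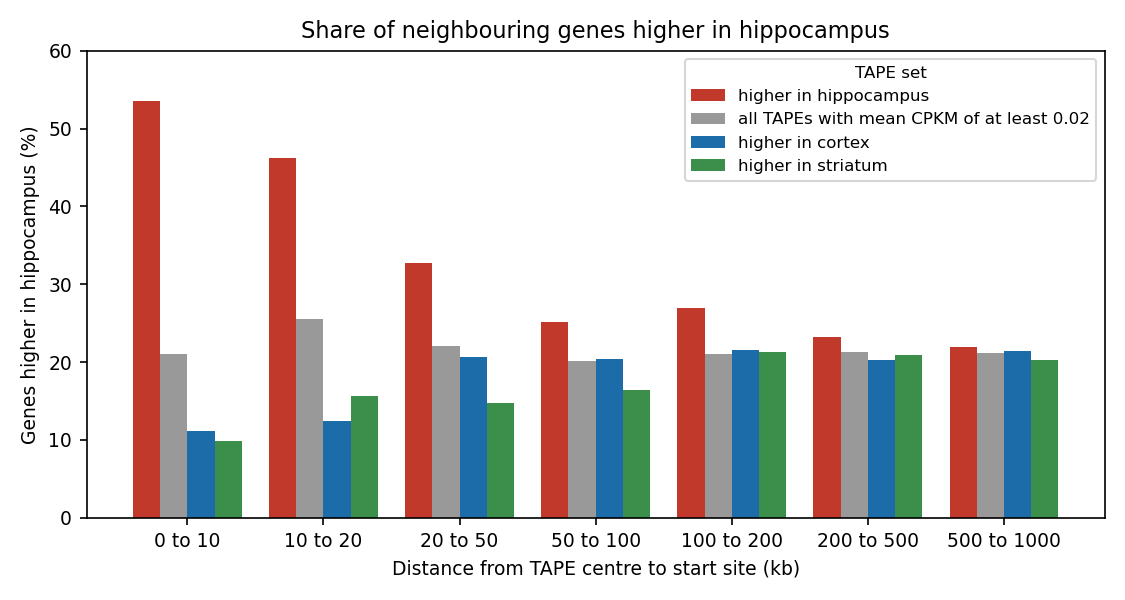
Percent of genes with a profile that were higher in hippocampus, by distance in kb from the TAPE centre to the gene's start site (bands do not add up), for members, for all TAPEs with a mean of at least 0.02 CPKM, and for TAPEs higher in cortex or in striatum. Red bars fall from 53.5% within 10 kb to 21.9% beyond 500 kb, while grey bars stay between 20.2 and 25.5%.

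Many members had no such gene close by. No start site lay within 100 kb of 147 members (39.9%; 34.8% of all TAPEs with a mean of at least 0.02), and the median distance to the nearest start site was 62847 bp (53016 bp for the latter). For TAPEs higher in cortex it was 95811 bp and for those higher in striatum 71334 bp. A hippocampus-higher gene lay within 100 kb of 131 members (35.6%), of 27.8% of all TAPEs with a mean of at least 0.02, of 53 of the 265 cortex-higher TAPEs and of 17.7% of the striatum-higher TAPEs.

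Members were then divided by the side of the gene on which they lay. Within 10 kb upstream of a gene lay 44 members (11.96%; 11.5% of all TAPEs with a mean of at least 0.02), and within 10 kb beyond a gene's end lay 34 (9.24%; 15.9%). Of the genes in the first case 26 of 44 were higher in hippocampus (59.1%, against 22.4% for all such TAPEs), and in the second 16 of 33 (48.5%, against 24.9%). The other 290 members lay over 10 kb from the body of any gene, and 80 of 262 genes within 100 kb of them were higher (30.5%, against 21.1%).

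Within hippocampus, the correlation of members with their neighbours was near that of other pairs. Over the 6 hippocampal libraries, the authors' deposited r was above 0.5 for 20.9% of the pairs within 10 kb of a member and for 19.1% of those of all TAPEs with a mean of at least 0.02, with medians of 0.04 and 0.05. Over all 19 libraries the corresponding shares were 51.2% and 21.0%. The gene of highest r within 1 Mb was the nearest gene for 18.5% of members and 19.4% of all TAPEs with a mean of at least 0.02.

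Of the 23 hippocampal identity genes in the table, start sites of 2 lay within 100 kb of a member, those of Prox1 and Plk5 (8.70%, against 2.93% of all 17715 genes). This was not particular to that list. As near lay 3 of 10 interneuron, 1 of 3 choroid plexus, 1 of 8 astrocyte and 1 of 12 cortical projection neuron genes. No gene did so of the Cajal-Retzius, striatal projection neuron, oligodendrocyte-lineage, microglial, vascular and meningeal or dividing-progenitor lists. The Prox1 member, on chromosome 13 (108376448 to 108377915), lay 5217 bp upstream of the homeobox gene that specifies dentate granule cells. It ran from 0.258 to 0.369 CPKM in hippocampus (median 0.343), 0 to 0.103 in cortex (median 0.0282) and 0 to 0.0261 in striatum (median 0.0235), with no overlap. Prox1 RNA was higher in hippocampus (exact permutation adjusted p = 0.000274; r = 0.975 over 19 libraries and -0.236 over the 6 hippocampal ones). The other, on chromosome 7 (12236306 to 12237538), ran from 0.1 to 0.326 CPKM in hippocampus (median 0.268) and up to 0.0723 in cortex and 0.114 in striatum. It lay 15592 bp from the polo-like kinase gene Plk5, which did not pass (exact permutation adjusted p = 0.141), and 7543 bp from Adamtsl5, an ADAMTS-like gene that was higher (adjusted p = 0.000274).

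The list itself was mostly higher in hippocampus: Prox1, Lhx2, Lhx9, Lef1, Emx2, Wnt8b, Nr3c2, Grik4, Dsp, Nrp2, Neurod1, C1ql2, C1ql3 and Trpc6 passed as higher, and Man1a1 and Pou3f1 as lower. The median difference between hippocampus and the other libraries was 1.87 SD of a gene's own profile, against -0.15 over all genes.

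Of 25 Wnt pathway genes, 13 were higher in hippocampus and 3 lower, with a median difference of 1.53 SD. Among them were the ligands Wnt2b, Wnt3a and Wnt8b, the receptors Fzd1, Fzd7, Fzd9 and Fzd10, the coreceptor Lrp5, the agonist Rspo2, the nuclear factor Lef1, the feedback gene Axin2, and Dkk3 and Frzb. Wnt7a and the secreted inhibitors Sfrp1 and Sfrp2 were lower. Members lay within 100 kb of 5 of the 26 genes of the list in the table (19.2%, against 2.93% of all genes). Rspo2 (9003 bp away), Fzd7 (37523 bp) and Lrp5 (56623 bp) were higher in hippocampus (exact permutation adjusted p = 0.000274 each), and Wnt7b (32311 bp) and Rspo1 (38946 bp) did not pass (adjusted p = 0.193 and 0.336). The member near Wnt7b, at a hippocampal mean of 0.165 CPKM, was the most abundant of these, and the one near Rspo2 had a mean of 0.0478 CPKM in hippocampus, 0.0183 in cortex and no striatal read.

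Of 19 neuronal bHLH genes, 6 were higher (Neurod1, Neurog2, Bhlhe22, Bhlhe40, Nhlh1 and Nhlh2) and Neurod4 was lower, and of this list only Tcf3 lay within 100 kb of a member (1 of 19, 5.26%; 92760 bp away; exact permutation adjusted p = 0.952). Some members lay near genes that mark other neurons or glia and did not pass the test. Fezf2, a transcription factor of deep-layer cortical neurons, lay 15086 bp from a member at 0.136 CPKM in hippocampus, 0.017 in cortex and 0.00752 in striatum (exact permutation adjusted p = 0.616). The interneuron genes Dlx2 and Dlx1 lay within 100 kb of 2 members, 73755 and 90795 bp from the nearer of them. Lhx6 lay 82227 bp from a member, the astrocyte gap junction gene Gja1 3708 bp, and the choroid plexus gene Kl 52898 bp.

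The response to KCl was tested within each region, but the rule's hippocampal mean includes the KCl libraries, so a TAPE with more RNA there could become a member through them. In the vehicle libraries alone, 275 members kept a ratio of at least 2 and 19 had a hippocampal mean below that of another region, and in the KCl libraries alone these numbers were 291 and 1. With the whole rule applied to vehicle libraries only, 229 of the 368 remained members. The members' counts and medians for KCl in hippocampus are therefore descriptions, not evidence of a response. The treatment was visible in genes: all 19 activity-induced genes of the list, among them Fos, Npas4, Arc and Egr2, had every hippocampal KCl library above every vehicle library, as 8.17% of all genes did. None of the 5017 TAPEs passed an adjusted p of 0.05 for KCl in hippocampus (limma on log2(CPKM + 0.05), 3 against 3 libraries; 0.0%), and so 0 of 368 members did. At an unadjusted limma p under 0.05, 29 members were higher with KCl and 16 lower (7.88 and 4.35%), where 3.17% and 6.24% of the 5017 TAPEs were. In striatum, the TAPEs higher there likewise had 11.0% higher and 7.53% lower, where 3.65% and 7.91% of the 5017 were. The KCl libraries lay entirely above the vehicle libraries for 41 members (11.1%; 3.95% of the 5017 TAPEs) and entirely below for 26 (7.07%; 10.9%). When the 6 groups shared a fit, 8 members passed, all higher with KCl, among 26 of the 5017 TAPEs (0.518%; 14 higher, 0.279%).

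As a group, members had a median log2 change with KCl of 0.03, and all 5017 TAPEs had one of -0.10. The members' median turned to -0.13 (all tested -0.16) among TAPEs with a mean of at least 0.05, and to -0.01 without hippocampus vehicle replicate 1. The order was the same in each band of hippocampal level, a split added after the data were examined, with medians of 0.21 for members and -0.12 for other TAPEs at 0.03 to 0.05 CPKM, 0.01 and -0.14 at 0.05 to 0.1, -0.01 and -0.20 at 0.1 to 0.2, and -0.08 and -0.22 at 0.2 and over. Members took 6.90, 7.58 and 7.68% of all TAPE reads in the vehicle libraries of hippocampus and 8.28, 8.35 and 8.56% in its KCl libraries. These groups did not overlap. Per M reads of the library, members held 78.8 to 84.7 with vehicle and 77.8 to 85.6 with KCl, which overlapped.

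Members with the smallest p are described by their values, since the KCl libraries helped to select them. First was a TAPE on chromosome 7 (60749173 to 60751841), 7179 bp upstream of Mdm2, which encodes the ubiquitin ligase of p53. It stood at 0.0663, 0.071 and 0.0543 CPKM in the hippocampal vehicle libraries and at 0.216, 0.218 and 0.287 in the KCl libraries. All KCl values were above all vehicle values, a difference of 1.34 ± 0.18 on the log2 scale (SE) that did not pass (limma adjusted p = 0.271). The changes were -0.16 ± 0.33 in cortex and -0.28 ± 0.39 in striatum (SE), and the difference between regions did not pass (limma interaction adjusted p = 0.34). With vehicle alone its mean was 0.0639 CPKM in hippocampus and 0.0791 in cortex, so the TAPE was a member through its KCl libraries. Mdm2 RNA had an r of 0.877 with the TAPE over the 6 hippocampal libraries. This r spans both treatments, and how much of it comes from the treatment was not tested.

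The next 4 members were shallower. On chromosome 1 (52816502 to 52818456), 77353 bp from Tbxt, the gene of the mesodermal factor brachyury, vehicle libraries held 0.0362, 0 and 0.0185 CPKM and KCl libraries 0.188, 0.126 and 0.136. The member 14466 bp from Rnf216, a ubiquitin ligase gene on chromosome 12 (13492817 to 13495108), held 0.0309, 0.015 and 0 with vehicle and 0.0916, 0.154 and 0.131 with KCl. Each was higher in every KCl library, by log2 changes of 1.58 ± 0.28 and 1.44 ± 0.28 (SE; limma adjusted p = 0.272 for each). These changes depended on the scale, from 0.68 and 0.59 with a pseudocount of 0.2 to 3.25 and 3.20 with voom on reads. The other pair lay 167880 bp from the flippase gene Atp10a on chromosome 1 (115806410 to 115808479) and 15363 bp from Epm2aip1 on chromosome 8 (119538424 to 119540381). The first held 0.0171, 0 and 0 CPKM with vehicle and 0.118, 0.0682 and 0.113 with KCl, and the second no read with vehicle and 0.0626, 0.0901 and 0.0511 with KCl. Neither passed (limma adjusted p = 0.272 for each). With vehicle alone, the members near Rnf216, Atp10a and Epm2aip1 had means of 0.0153, 0.0057 and 0 CPKM in hippocampus, below their cortical means of 0.017, 0.0141 and 0.0271, so that they too were members through their KCl libraries. The member near Tbxt had vehicle means of 0.0182, 0.00547 and 0.00957 CPKM in hippocampus, cortex and striatum. These met neither limit of the rule.

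**Figure D3:**
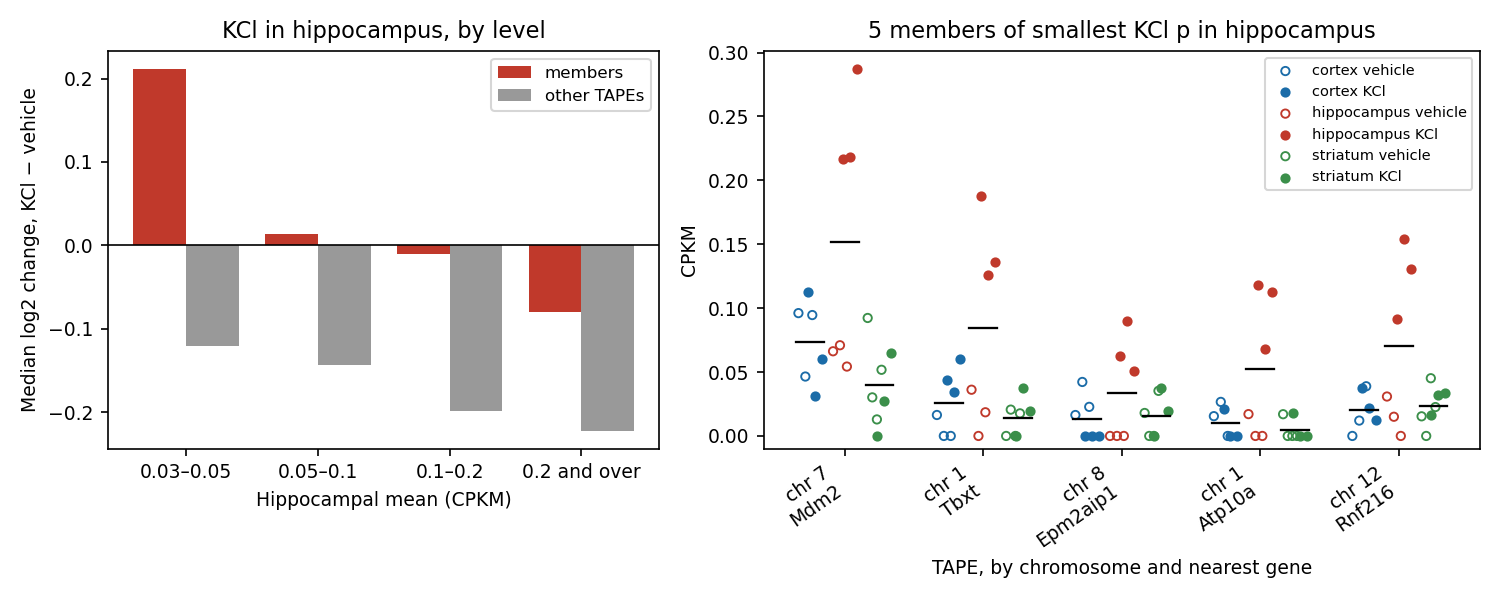
Left, median log2 change (KCl minus vehicle, log2(CPKM + 0.05)) in hippocampus for members and other TAPEs by hippocampal mean. Right, CPKM per library of the 5 members of smallest p, with open circles for vehicle, filled circles for KCl, colours for regions and lines for region means. Members lie above the other TAPEs in each band, and the filled red points of the 5 members lie above the open ones.

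In the other regions, where members are low, no member passed for KCl: 0 of 368 in cortex (1 of 5017 TAPEs, 0.0199%), 0 in striatum (3 of 5017, 0.0598%) and 0 for a KCl effect that differs by region (2 of 5017, 0.0399%; limma). The median log2 change of members was -0.01 in cortex and 0.00 in striatum, against -0.07 and -0.11 for all TAPEs tested. The TAPEs higher in cortex had a median of -0.10 in cortex, and those higher in striatum one of -0.07 in striatum.

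Along the chromosomes, members lay close to each other. Another member was centred within 100 kb of 114 of the 368 (31.0%), and the same held for 37.7% of the cortex-higher and 39.9% of the striatum-higher TAPEs among their own. After a member, the next TAPE with a mean of at least 0.02 was again a member in 24.3% of cases, where it was a member after 7.35% of all such TAPEs. The share was 49.0% for gaps up to 10 kb (5.50% after any TAPE), 45.3% at 10 to 50 kb (6.62%), 24.1% at 50 to 100 kb (8.63%), 16.7% at 100 to 200 kb (7.98%), 18.6% at 200 to 500 kb (8.05%) and 8.16% at 500 to 1000 kb (7.55%). Whether neighbours within a few kilobases belong to a single transcribed stretch was not tested.

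**Figure D4:**
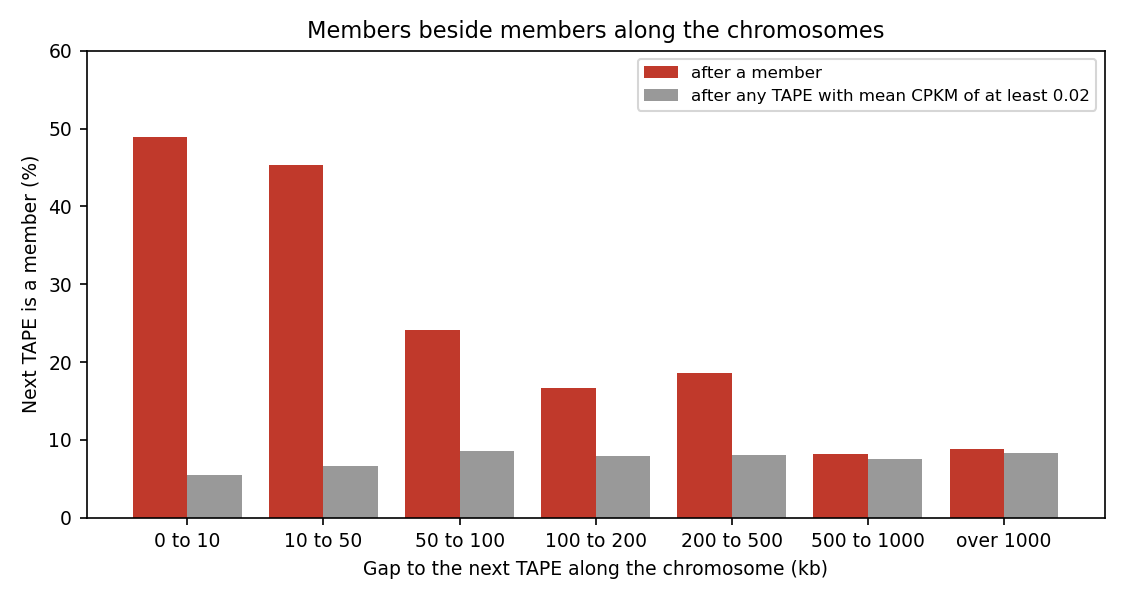
Percent of cases in which the next TAPE with a mean of at least 0.02 CPKM along the chromosome was a member, by the gap between centres in kb, after a member (red) and after any such TAPE (grey). Red bars fall from 49.0% to 8.16% at 500 to 1000 kb, and grey bars stay between 5.50 and 8.63%.

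Joined over gaps of at most 100 kb, members formed 49 chains of at least 2, of which 12 had at least 3. The largest by number of members, 5 over 119.3 kb of chromosome 10 (41661274 to 41780606), had no gene within 100 kb and held 5 of the 5 TAPEs of its span that reached the mean of 0.02. Its members' hippocampal means ran from 0.0518 to 0.113 CPKM, and its nearest gene was LOC102552882, at 115866 bp. A chain of 4 on chromosome 2 (224002035 to 224139151) lay 584806 bp from Rwdd3, also without a gene within 100 kb, at 0.0619 to 0.137 CPKM, and held a striatum-higher TAPE in its span. Another of 4, over 32.2 kb of chromosome 7 (415260 to 447492), ran from 0.0427 to 0.0947 CPKM and lay 35333 to 65968 bp from LOC102554748, which was higher in hippocampus (exact permutation adjusted p = 0.0276).

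The most RNA came from chains of 3 near Synpr and Vegfa, which contained the most abundant member and the fifth. Their hippocampal means ran from 0.0689 to 1.44 CPKM and from 0.0727 to 0.54 CPKM. On chromosome 2, a chain of 3 (257872656 to 257902636) and the pair near St6galnac5 lay on either side of Pigk, a gene of GPI anchor attachment that was within 100 kb of 4 members and missed the threshold (exact permutation adjusted p = 0.053). The adenylate kinase gene Ak5, within 100 kb of 3 members, was higher in hippocampus (adjusted p = 0.000274), with r of 0.752 to 0.891 with them over 19 libraries.

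By chromosome, the count of members ran from 47 on chromosome 1 and 37 on chromosome 2 to 3 on chromosome 20, and none lay on the Y chromosome. As a share of the TAPEs with a mean of at least 0.02, members were most frequent on chromosome 15 (16 of 150, 10.7%) and chromosome 9 (23 of 220, 10.5%). They were least frequent, apart from Y, on chromosome 13, where 4 of 166 were members (2.41%), the Prox1 member among them.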

How the data were processed

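Total RNA was measured in 19 libraries grouped by their titles. The authors trimmed reads, aligned them to Rn6, found TAPEs in merged ATAC-seq and RNA-seq data, and counted each TAPE's reads. The submitters' processing notes name Trim Galore 0.4.5, SAMtools 1.9 and FastQC. The deposited TAPE values are RPKM (called CPKM), unlogged. The deposited correlations are a score from -1 to 1, Pearson's r of TAPE and gene values, for genes with a start site within 1 Mb.

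Whole reads (within 0.02) were recovered for 100% of values from CPKM, TAPE length and the inferred library total. Both mates were counted, so 2 reads may be 1 fragment. Floors cover counting error only. The study's methods call the libraries of a group biological replicates.

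KCl was tested with limma 3.58.1 (R 4.3.3; lmFit, eBayes with trend, two-sided) on log2(CPKM + 0.05) for all 5017 TAPEs with a mean of at least 0.02, so every member was tested. Adjusted p is Benjamini-Hochberg throughout, and fold changes on this scale understate low TAPEs. Each gene's profile (SD 1, no scale) was solved from its deposited correlations for 16733 of 17715 symbols (94.5%); 914 had too few TAPEs and 68 several positions. It was tested by an exact permutation test (27132 arrangements, two-sided, smallest p 3.7e-05). Higher means an adjusted p under 0.05 and a mean above both other regions. Distances are from TAPE centre to start site. Of 4 promoters sought (nearest genes at r of at least 0.9 among the 12 most abundant members, and Prox1), 3 were matched. Python 3.11.15, numpy 2.4.6, pandas 2.3.3 and matplotlib 3.10.9 were used, and scripts were tested on simulated data.

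Members and gene lists were chosen with earlier results of these data known. TAPEs named are the 12 most abundant, the 8 of highest ratio, the 5 of smallest KCl p in hippocampus, chains of 4 or more (chains of 3 were added after their values were seen), those near hippocampal identity genes, and those at the limits. Genes named are the nearest to these, the one of highest r within 100 kb, genes near 3 or more members, and listed genes. Alternatives covered limits, scaling, pseudocount, filter, voom, a joint fit, a replicate block, windows and left-out libraries.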

Additional observations from a re-analysis of the deposited data

Results flagged for a closer look

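Among 81 groups of library values checked for the 27 members named, 4 held a library that stood far from the others. The limit used flags about 1 in 20 groups of normally distributed values. That rate does not hold for groups with few reads and many zeros. In striatum, the second TAPE of the pair near St6galnac5 had 0.096 CPKM in vehicle replicate 2, below the next lowest library at 0.186 and a highest of 0.228. The other 3 are single cortical libraries with reads where the other 5 held none. These were 0.0137 CPKM in cortex vehicle replicate 3 at the member near Slc30a8, 0.0178 in cortex vehicle replicate 1 at the first of the members near Crbn, and 0.0225 in cortex vehicle replicate 1 at the member near Utp15. The first of these libraries is the one whose tissue label says striatum, and the member near Slc30a8 had no read in any striatal library.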

How the results depend on the processing

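The number of members followed its limits: 77 with a mean limit of 0.05, 949 with 0.01, 618 with a ratio of 1.5 and 180 with a ratio of 3. It also followed scaling and treatment. It was 523 with libraries scaled to their median (all 368 among them), 443 with vehicle libraries only (229 shared) and 491 with KCl libraries only (261 shared). It ran from 330 to 398 when any 1 library was left out. For KCl, members passing in hippocampus numbered 0 except in the joint fit of 6 groups (8 of 26 TAPEs passing). In the separate fit of hippocampus it stayed at 0 with any 1 library left out, and the joint fit was not run with a library left out. In the joint fit the members near Tbxt, Atp10a, Rnf216 and Epm2aip1 passed with log2 changes of 1.58, 1.42, 1.44 and 1.22 (limma adjusted p = 0.0116, 0.0116, 0.0283 and 0.0322). The KCl libraries helped to select these members, so these values describe them and are not evidence of a response. The count in cortex was 1 with voom (13 TAPEs passing), in striatum 1 in the joint fit (60 passing), and both stayed at 0 with any library left out. For the interaction it was 2 with a pseudocount of 0.2 (15 passing), 1 with voom (3 passing), and 0 to 1 with 1 library left out, the 1 coming without hippocampus vehicle replicate 2. The members' median log2 change in hippocampus was -0.13 with a filter of 0.05 (77 members; all tested -0.16), 0.13 after centring each library (all tested 0.00), and -0.01 to 0.06 with 1 library left out. Genes higher in hippocampus numbered 103 (38.9%) within 50 kb, 292 (29.5%) within 200 kb, 80 (30.5%) for members over 10 kb from any gene body (added after seeing the data), and 154 to 166 with 1 library left out. With centres within 10 kb counted once, 75 members (21.8%) had another within 100 kb. The replicate block moved no count of members (0 in hippocampus and cortex). Deviations of same-numbered libraries correlated at -0.04 to 0.01 and those of differently numbered libraries at -0.03 to 0.03. With few reads per TAPE, such values cannot settle whether the numbers pair cultures. Striatum shares no numbers between treatments. The cause of these moves was not tested. Most members hold few reads, which limits what the KCl test can show.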
